A study of Mus musculus with 18 samples.

Results

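Transcripts of follistatin, the activin and inhibin subunits and the activin receptors were followed in 18 RNA sequencing libraries of mouse testis, liver and brain. The set holds 10 of the 34932 genes of the deposited table: the inhibitors Fst and Fstl3, the inhibin alpha subunit Inha, the beta subunits Inhba, Inhbb, Inhbc and Inhbe, and the receptors Acvr1b, Acvr2a and Acvr2b. The set was chosen because Fst is much lower in the liver of stressed mice, so that the comparison of stressed with control liver is given here as a description and carries no test for these 10 genes. All 10 were found in the table by their Ensembl identifiers.

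The study compared mice under chronic restraint stress (CRS), repeated confinement used as a model of psychological stress, with control mice. Each of the 6 groups (stress testis, stress liver, stress brain, control testis, control liver, control brain) had 3 libraries, labelled as biological replicates. No source used here gives the strain or age of the mice, or the length and timing of the restraint. The samples are labelled as brain, although the extraction protocol mentions hippocampus, and they are called brain below.

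Activins are dimers of beta subunits and belong to the transforming growth factor beta family. They bind a type 2 receptor (Acvr2a or Acvr2b), which then activates a type 1 receptor such as Acvr1b, and the signal is passed on by Smad2 and Smad3. A beta subunit joined to the alpha subunit Inha forms an inhibin, which opposes activin, while follistatin (Fst) and follistatin-like 3 (Fstl3) bind activins and keep them from their receptors. Sertoli cells of the testis are a classical source of inhibin B, made of Inha and Inhbb, and the subunits Inhbc and Inhbe are known chiefly as hepatocyte products. Hepatocytes also make and secrete follistatin, and its liver transcript is known to respond to the balance of glucagon and insulin.

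Total counts per library lay between 27.8 and 36.5 megacounts. Hepatocyte markers were highest in liver, neuron markers in brain and germ cell markers in testis, though hepatocyte markers summed to 321 and 495 CPM in 2 of the 3 stress brain libraries, against 2.19 to 7.09 CPM in control brain. The hepatocyte list shares Ttr with the choroid plexus list, whose markers summed to 353 and 528 CPM in the same 2 libraries. The hepatocyte sum in brain is therefore not a measure of liver RNA alone. The Sertoli marker sum was higher in liver than in testis, so it is used within testis only. One library, stress testis replicate 2, stood apart from the other 5 testis libraries, being the highest or the lowest of the 6 in 61.8% of the 19915 genes tested there, against 19.1% to 44.7% for each of the others. Values below are CPM, counts relative to library size scaled by TMM factors within each tissue, where stress and control are compared, and the deposited TPM, which is per length, where genes or tissues are set side by side. A single gene, Gm23935, took 27436 to 167478 TPM in stress testis, the highest in replicate 2, and 27263 to 75830 TPM in control testis, which lowers the TPM of all other genes in testis to an extent that differs between libraries, and CPM in testis is therefore given as well. Errors are SD over 3 libraries or the standard error (SE) of the edgeR estimate.

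Fst was lower in each stress liver library than in any control liver library. It had 3.68, 2.57 and 2.19 CPM in stress liver (115, 85 and 67 counts), against 14.9, 12.5 and 12.04 CPM in control liver (513, 420 and 388 counts). The group means differed 4.67-fold, and the log2 fold change was -2.22 ± 0.22 (SE, n = 3 against 3). Leaving out any 1 of the 6 libraries kept it between -2.46 and -2.07. In bulk tissue, fewer cells that make a transcript and less of it per cell cannot be told apart. Fstl3, the other soluble inhibitor, had 0 to 4 counts in stress liver and 0 to 6 counts in control liver, too few for a comparison. Fst made up 96.8% to 100% of the summed TPM of Fst and Fstl3 in stress liver, and 98.9% to 100% in control liver. Inha, the inhibin alpha subunit, had 0 to 6 counts in stress liver and 3 to 6 counts in control liver.

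The beta subunits of the liver were mostly Inhbc and Inhbe. Inhbc, the activin C subunit, had 86.5, 69.5 and 75.7 CPM in stress liver, against 56.7, 42.8 and 63.4 CPM in control liver. The groups did not overlap, and the log2 fold change was 0.51 ± 0.16 (SE). Inhbe, the activin E subunit, had 32.1, 28.1 and 56.5 CPM in stress liver, against 30.6, 15.2 and 16.6 CPM in control liver. Control replicate 1 lay among the stress values, so the groups overlapped, and the log2 fold change was 0.90 ± 0.32 (SE). Inhbb, the activin B subunit, was rare in liver, with 6, 15 and 8 counts in stress and 20, 17 and 46 counts in control, or 0.19, 0.45 and 0.26 CPM in stress liver against 0.58, 0.51 and 1.43 CPM in control liver. Its groups did not overlap, with a log2 fold change of -1.45 ± 0.57 (SE), which was -0.83 without control replicate 3 and -1.87 without stress replicate 2. Inhba, the activin A subunit, had 2.72, 4.87 and 4.71 CPM in stress liver, against 3.61, 2.77 and 6.70 CPM in control liver. These ranges overlapped, and the log2 fold change of Inhba was -0.09 ± 0.36 (SE).

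Inhbc and Inhbe lie close together on mouse chromosome 10, and the 250 bases before their start sites are shown because these genes supply most of the beta subunit transcripts of the liver. Both sequences are on the minus strand of GRCm38.p6, from RefSeq, at chr10:127351849-127352098 for Inhbe and chr10:127370549-127370798 for Inhbc. Capitals mark a match to the C/EBP-ATF composite core TGATGCAA, read on either strand.
Inhbe: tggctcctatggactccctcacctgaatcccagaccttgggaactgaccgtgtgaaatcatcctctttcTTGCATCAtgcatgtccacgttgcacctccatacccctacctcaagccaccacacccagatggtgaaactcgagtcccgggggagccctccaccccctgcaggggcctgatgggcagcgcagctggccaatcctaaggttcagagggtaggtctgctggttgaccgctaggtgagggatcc
Inhbc: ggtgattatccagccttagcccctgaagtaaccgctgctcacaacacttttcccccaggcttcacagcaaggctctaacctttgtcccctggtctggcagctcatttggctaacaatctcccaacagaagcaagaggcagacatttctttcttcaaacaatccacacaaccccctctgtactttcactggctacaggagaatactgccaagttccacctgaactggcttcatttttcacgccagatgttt
The Inhbe match lies at bases -181 to -174 from the start site and is TTGCATCA, the core read on the other strand. The same 8 letters occur in 260 of 32851 promoters of this length, or 0.791%. The Inhbc window holds no match to this core. No match to the cAMP response element TGACGTCA, which 1.55% of promoters hold, was found on either strand of the windows of the 9 genes of the set that have one in the table, Fst being the gene without. These matches are letters in a window and not sites of binding.

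Summed over the 4 beta subunits, the liver held 114, 99.3 and 132 TPM in the stress libraries, against 83.4, 58.1 and 87.8 TPM in the control libraries. Inhbc and Inhbe together made up 94.98% to 97.7% of that sum in stress liver, and 91.5% to 95.7% in control liver. Set against this sum, Fst stood at 2.61%, 2.15% and 1.39% in stress liver and at 14.2%, 17.6% and 11.8% in control liver. The ranges of that ratio were far apart, and both its parts moved, Fst being lower and the sum higher in each stress library. It compares transcripts only, and most of the sum is Inhbc and Inhbe. Whether follistatin binds the products of those genes, or which receptors they use, was not tested. The plot of beta subunits and follistatin per library shows this ratio as the height of the diamond against the bar.

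**Figure D1:**
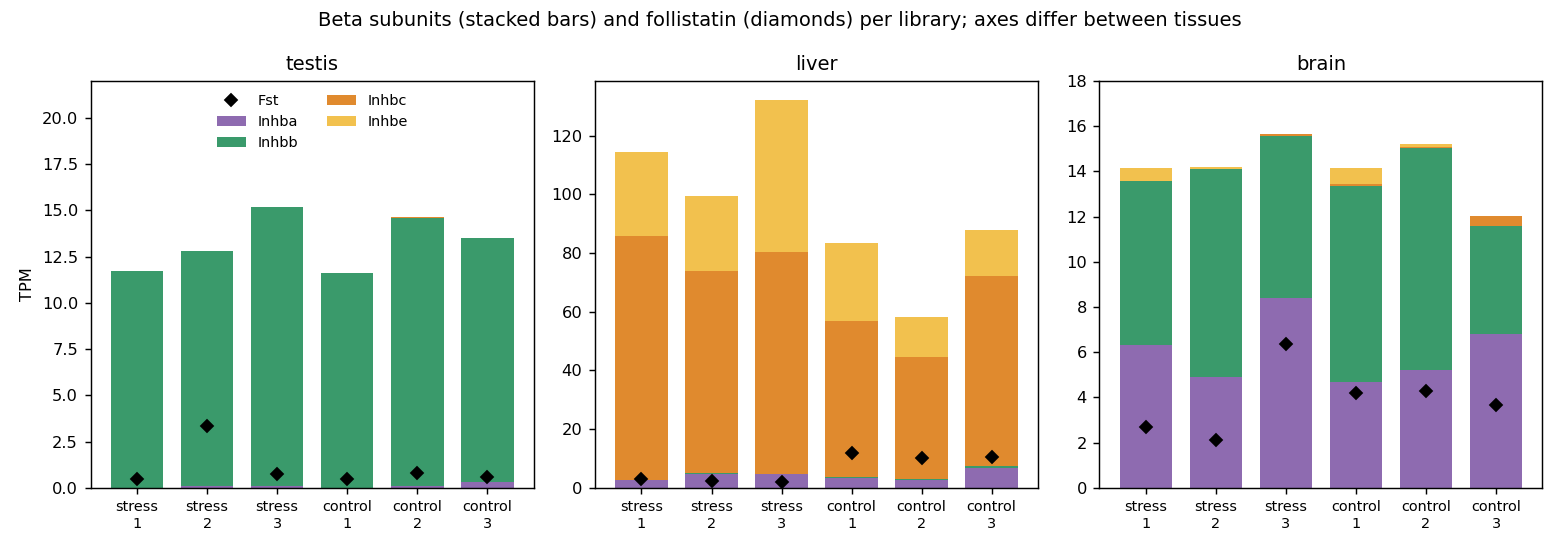
TPM of the beta subunits Inhba, Inhbb, Inhbc and Inhbe (stacked bars) and of Fst (diamonds) in each library, with stress libraries left of control libraries and a separate linear axis per tissue. Liver bars are nearly all Inhbc and Inhbe, testis bars are nearly all Inhbb, and the Fst diamonds of the stress liver libraries sit at 2.98, 2.14 and 1.84 TPM, against 11.8, 10.2 and 10.3 TPM in control liver.

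None of the 3 receptors separated the liver groups. Acvr1b, the type 1 receptor known as ALK4, had 10.9, 14.1 and 13.5 CPM in stress liver, against 17.47, 23.0 and 11.5 CPM in control liver, a log2 fold change of -0.44 ± 0.24 (SE). Acvr2a had 13.3, 15.2 and 20.5 CPM in stress liver, against 9.67, 17.4 and 16.0 CPM in control liver, a log2 fold change of 0.18 ± 0.24 (SE). Acvr2b had 4.71, 5.56 and 4.25 CPM in stress liver, against 3.29, 5.62 and 2.45 CPM in control liver, a log2 fold change of 0.35 ± 0.31 (SE). In each of these comparisons the control libraries spread at least as widely as the stress libraries, and the ranges overlapped.

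Over all 14253 genes tested in liver, edgeR called 1.63% at an adjusted p under 0.05 (0.982% higher and 0.645% lower). No calls are given for the set, which was chosen on this comparison. Of its 8 genes that passed the filter on low counts in liver, groups did not overlap for 3 (Inhbc higher, Fst and Inhbb lower), where 23% of all genes tested did not, and these counts are a description.

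Other genes of the pathway were tested in liver with edgeR's quasi-likelihood test and Benjamini-Hochberg adjustment. Among 11 other receptors and co-receptors tested, 14 Smads and regulators, 16 other ligands of the family and 7 other antagonists, 0 were called. With no adjustment, p was under 0.05 for 1 receptor (higher), for 2 Smad genes (1 higher, 1 lower), for 4 ligands (1 higher, 3 lower) and for 0 antagonists, and DESeq2 called 1 Smad gene higher. Over all 14253 genes tested in liver, p before adjustment was under 0.05 for 1252 higher and 1193 lower. DESeq2 called 466 higher and 379 lower (5.93%). These counts are the background for each liver list below as well. Smad9, a Smad of the bone morphogenetic protein branch, averaged 16.0 ± 2.1 CPM in stress liver and 6.82 ± 3.7 CPM in control liver (SD, n = 3 each; log2 fold change 1.23, adjusted p = 0.088). Smurf1, a ubiquitin ligase that acts on Smads, averaged 16.6 ± 0.88 CPM in stress liver and 22.5 ± 2.4 CPM in control liver (SD, n = 3 each; adjusted p = 0.14). The median log2 fold changes of these 4 lists lay between -0.12 and -0.05, against -0.01 over all genes tested.

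The 10 genes listed as targets of Smad2 and Smad3, the activin and TGF-beta branch, had a median log2 fold change of -0.37 in liver, with 8 of 10 below 0 and 0 called by edgeR. Before adjustment, p was under 0.05 for 3 of them, all lower, and DESeq2 called 1 lower. Klf10, an early response gene of TGF-beta, had 23.6, 68.2 and 39.3 CPM in stress liver, against 78.0, 91.3 and 124 CPM in control liver (adjusted p = 0.12). The 7 targets of Smad1, Smad5 and Smad9, the bone morphogenetic protein branch, had a median of 0.37, with 0 called by edgeR and 1 called higher by DESeq2. Before adjustment, 3 of them had a p under 0.05, all higher. Hamp, which encodes the iron hormone hepcidin, averaged 1610.0 ± 209 CPM in stress liver and 858 ± 222 CPM in control liver (SD, n = 3 each; log2 fold change 0.91, adjusted p = 0.053). Atoh8, a transcription factor gene downstream of this branch, averaged 28.5 ± 2.5 CPM in stress liver and 18.0 ± 6.1 CPM in control liver (adjusted p = 0.19).

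Among 10 genes of glucagon, insulin and Foxo control of the liver, 1 was called higher and 0 lower. Pck1, the gene of a rate-controlling enzyme of gluconeogenesis, rose to 3914, 4112 and 3302 CPM in stress liver, against 1606, 1415 and 1943 CPM in control liver, with a log2 fold change of 1.19 ± 0.16 (SE) and an edgeR adjusted p of 0.012, which reached 0.053 without stress replicate 1. Other genes of that list lay the other way. Irs2, an adaptor of the insulin receptor, averaged 8.44 ± 2.1 CPM in stress liver and 18.6 ± 5.4 CPM in control liver (SD, n = 3 each; adjusted p = 0.051). G6pc, the gene of the glucose-6-phosphatase catalytic subunit, averaged 337 ± 46 CPM in stress liver and 664 ± 189 CPM in control liver (adjusted p = 0.052). Over the list, p before adjustment was under 0.05 for 1 higher gene and 4 lower genes, and DESeq2 called 1 higher and 3 lower.

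Markers of other liver cells were measured in the same comparison. The 10 Kupffer cell and macrophage markers summed to between 151 and 175 CPM in stress liver, against 74.7 to 89.3 CPM in control liver, and 6 of the 10 were called higher by edgeR, where 0.982% of all genes were, among them Cd163, a scavenger receptor of macrophages, at 9.27 ± 0.44 CPM in stress liver and 2.76 ± 0.67 CPM in control liver (SD, n = 3 each). That count was 3 without control replicate 2, 2 without stress replicate 1 and 0 without stress replicate 3. The 6 cholangiocyte markers summed to between 27.2 and 35.6 CPM in stress liver, against 46.1 to 53.7 CPM in control liver, with 0 of 5 tested called by edgeR and 3 lower at an unadjusted p under 0.05. Endothelial markers summed to between 52.1 and 90.5 CPM in stress liver, against 74.7 to 132 CPM in control liver, and 0 of 8 were called by edgeR, with 3 lower before adjustment. Hepatocyte markers summed to between 68755 and 90623 CPM in stress liver, against 81634 to 96009 CPM in control liver, and the ranges overlapped. Of the 10 hepatocyte markers, 7 had a log2 fold change below 0, and edgeR called 1 lower, the fibrinogen gene Fgb (log2 fold change -0.63, edgeR adjusted p = 0.048), while DESeq2 also called 1 lower. Stellate cell and fibroblast markers summed to between 126 and 186 CPM in stress liver, against 120 to 161 CPM in control liver, with 0 of 10 called by edgeR, 1 higher at an unadjusted p under 0.05 and 1 called higher by DESeq2. The part of these shifts in the values of Fst and the beta subunits was not tested.

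In testis, 7 genes of the set could be compared and 0 were called by edgeR, where 0.0201% of 19915 genes were. None reached an unadjusted p under 0.05 in edgeR, and DESeq2 called 0. Over all 19915 genes, p before adjustment was under 0.05 for 1281 higher and 1056 lower, and DESeq2 called 0.306%. These counts are the background for the testis lists below as well. Groups did not overlap for 2 of the 7 genes, Inha being higher and Acvr2b lower in stress, where 20.9% of all genes tested did not overlap. The shifts of Fst, Fstl3 and Inha in this tissue rested on stress replicate 2.

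Fst had 0.47, 3.55 and 0.66 CPM in stress testis (14, 108 and 22 counts), against 0.47, 0.76 and 0.54 CPM in control testis (13, 21 and 17 counts). Only stress replicate 2 was high, and the other 2 stress libraries lay within the control range. The log2 fold change of Fst was 1.39 ± 0.71 (SE, edgeR adjusted p = 0.45), and without stress replicate 2 it was -0.063. Fstl3 had 4.51, 8.06 and 3.04 CPM in stress testis, against 3.97, 2.71 and 3.55 CPM in control testis. Its log2 fold change was 0.61 ± 0.33 (SE, edgeR adjusted p = 0.47), and 0.14 without stress replicate 2.

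Inha had 70.4, 123 and 71.6 CPM in stress testis, against 65.2, 69.4 and 68.5 CPM in control testis. All 3 stress libraries lay above the controls, 2 of them by little, and the log2 fold change, 0.39 ± 0.20 (SE) with an edgeR adjusted p of 0.45, became 0.06 without stress replicate 2. Inhbb, which joins Inha in inhibin B, had 22.1, 24.5 and 25.2 CPM in stress testis, against 20.1, 24.8 and 22.2 CPM in control testis. Stress replicate 2 lay inside the range of the other libraries for Inhbb, and the log2 fold change was 0.10 ± 0.12 (SE). Inhba, Inhbc and Inhbe had 0 to 8 counts in any testis library and were not tested.

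Among the receptors in testis, Acvr1b had 23.6, 23.8 and 24.1 CPM in stress, against 21.0, 24.0 and 22.4 CPM in control (log2 fold change 0.09 ± 0.10, SE). Acvr2a had 28.1, 18.7 and 31.2 CPM in stress testis, against 27.4, 33.1 and 32.2 CPM in control testis, stress replicate 2 being the lowest of the 6. Its log2 fold change was -0.25 ± 0.18 (SE, edgeR adjusted p = 0.55), and -0.06 without stress replicate 2. Acvr2b, on 41 to 60 counts in stress and 59 to 65 in control, had 1.61, 1.97 and 1.22 CPM in stress testis, against 2.13, 2.17 and 2.08 CPM in control testis. The log2 fold change of Acvr2b was -0.41 ± 0.25 (SE, edgeR adjusted p = 0.50), and -0.59 without stress replicate 2 (adjusted p again 0.50).

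Markers of Sertoli cells were also high in that library. Their summed level was 1193, 1863 and 1212 CPM in stress testis, against 1282, 1162 and 1165 CPM in control testis. Of the 15 markers, 14 were highest in stress replicate 2, where 31.8% of all genes tested were. None of the 15 was called by edgeR or DESeq2, and 3 were higher at an unadjusted p under 0.05. Clu, which takes most of this sum, had 1379 CPM there and 835 to 966 CPM in the other 5 testis libraries. None of the 9 Leydig cell markers was called by edgeR between stress and control testis, and DESeq2 called 2 lower. Before adjustment, p was under 0.05 for 1 higher and 4 lower markers. In stress replicate 2 they went both ways: Insl3 had 271 CPM against 61.6 to 106 CPM in the others, while Cyp17a1 had 60.6 CPM against 97.3 to 134 CPM. The excess in stress replicate 2 was not particular to Sertoli markers. Summed markers of germ, Leydig, peritubular, endothelial and macrophage cells were also highest there, as were the stellate or fibroblast, neuron and choroid plexus sums. The hepatocyte and astrocyte sums were lowest there, and the cholangiocyte sum lay within the range of the other libraries. The part of these markers in the values of Fst, Fstl3 and Inha was not tested.

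**Figure D2:**
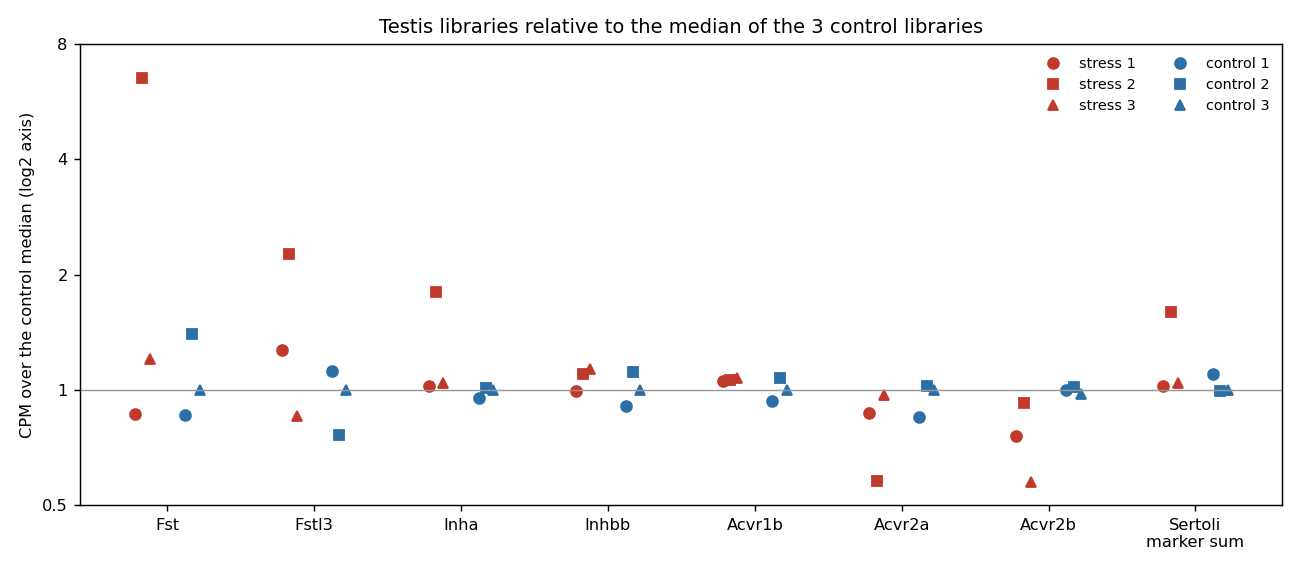
CPM of 7 genes and of the summed Sertoli cell markers in the 6 testis libraries, each divided by the median of the 3 control libraries, on a log2 axis, with stress libraries left of control libraries and symbols for the replicate number. Stress replicate 2 stands at 6.54 times the control median for Fst, 2.27 for Fstl3, 1.80 for Inha and 1.599 for the Sertoli marker sum, and at 0.58 for Acvr2a.

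In brain, 8 genes of the set were compared and 0 were called by edgeR, where 0.00566% of 17668 genes were. None reached an unadjusted p under 0.05, DESeq2 called 0, and blocking on the replicate number also gave 0. Over all 17668 genes, p before adjustment was under 0.05 for 735 higher and 597 lower, and DESeq2 called 0.775%. These counts are the background for the brain lists below as well. Groups overlapped for all 8 genes, where 13.8% of all genes tested did not overlap. Fst had 1.86, 1.43 and 4.48 CPM in stress brain, against 2.92, 2.96 and 2.61 CPM in control brain. The stress libraries lay on both sides of the controls, and the log2 fold change of -0.13 ± 0.42 (SE) changed sign when stress replicate 1 (0.06) or stress replicate 2 (0.17) was left out. Fstl3, on 17 to 44 counts in stress and 33 to 37 in control, had a log2 fold change of -0.25 ± 0.38 (SE).

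Inhba, a gene that neurons are known to induce with activity, had 3.70, 2.82 and 5.01 CPM in stress brain, against 2.77, 3.05 and 4.10 CPM in control brain (log2 fold change 0.21 ± 0.27, SE, edgeR adjusted p = 0.89). Among 12 other activity genes, 0 were called by edgeR and 3 were called lower by DESeq2. Before adjustment, 6 of the 12 had a p under 0.05, all lower. Btg2, the one with the smallest p, averaged 36.7 ± 8.0 CPM in stress brain and 125 ± 58 CPM in control brain (SD, n = 3 each; edgeR adjusted p = 0.39). Fosb averaged 34.7 ± 12 CPM in stress brain and 67.6 ± 10 CPM in control brain (edgeR adjusted p = 0.44). Inhbb had 9.11, 11.4 and 9.19 CPM in stress brain, against 10.95, 12.3 and 6.21 CPM in control brain. Inha had 36.8, 34.85 and 32.7 CPM in stress brain, against 30.3, 32.3 and 37.5 CPM in control brain, a log2 fold change of 0.06 ± 0.10 (SE).

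Transcripts of Acvr1b and Acvr2a were plentiful in brain, and those of Acvr2b were fewer. Acvr1b had 160, 176 and 164 CPM in stress brain, against 190, 173 and 165 CPM in control brain (log2 fold change -0.08 ± 0.08, SE). Acvr2a had 58.6, 102 and 66.9 CPM in stress brain, against 65.1, 71.0 and 48.5 CPM in control brain (0.30 ± 0.23, SE), its highest value being that of stress replicate 2. Acvr2b had 3.73, 3.75 and 4.89 CPM in stress brain, against 4.14, 4.41 and 5.52 CPM in control brain (-0.19 ± 0.20, SE). Choroid plexus markers summed to 15.0, 528 and 353 CPM in the 3 stress brain libraries, against 7.35 to 15.1 CPM in the controls, with 5 of the 6 tested markers higher at an unadjusted p under 0.05, 0 called by edgeR and 2 called higher by DESeq2. The part of choroid plexus RNA in these values was not tested. Inhbc had 0 to 10 counts and Inhbe 0 to 15 counts in any brain library, and neither was tested for stress.

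**Figure D3:**
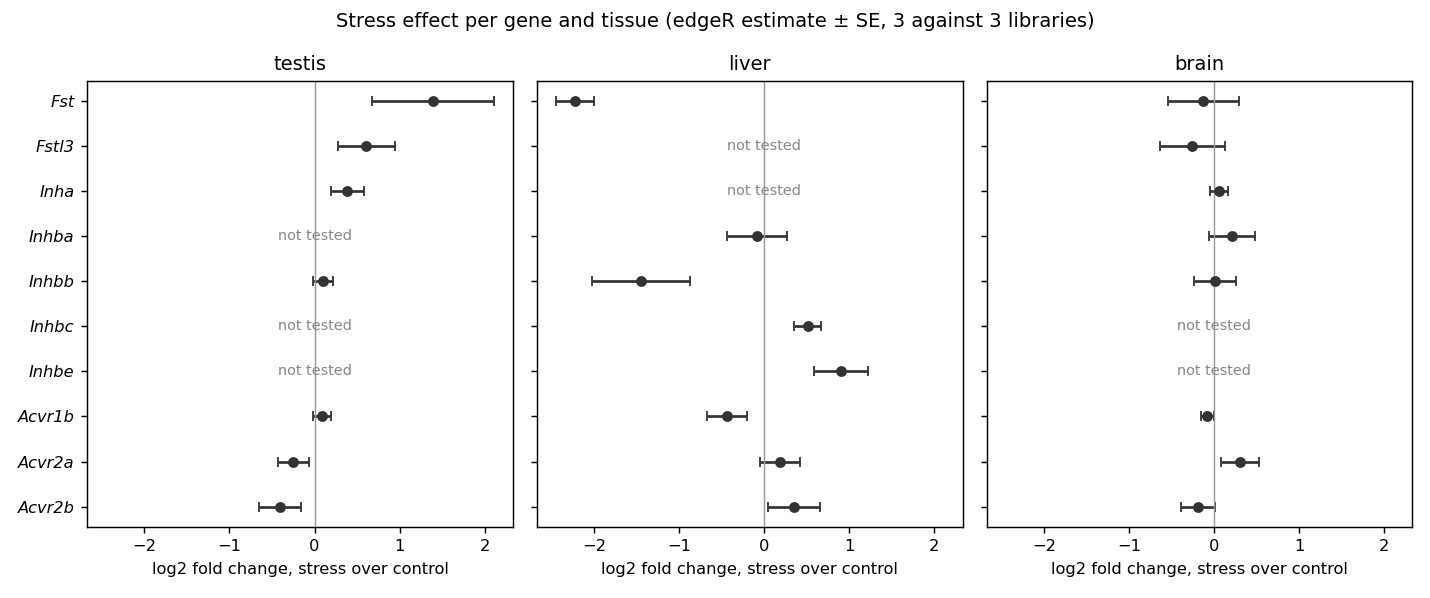
Log2 fold change of stress over control for each gene in testis, liver and brain, as the edgeR estimate with its standard error as the bar, from 3 stress and 3 control libraries per tissue. Fst lies at -2.22 in liver, at -0.13 in brain and at 1.39 in testis, where the estimate rests on stress replicate 2, and genes marked as not tested had too few counts in that tissue.

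The 6 lists of other ligands, antagonists, receptors, Smads and targets held 0 genes called by edgeR or DESeq2 among 67 tested in testis and 72 tested in brain. Before adjustment, p was under 0.05 for 2 higher and 3 lower genes in testis and for 5 higher and 1 lower in brain. In testis, targets of Smad2 and Smad3 included Col1a1, a collagen gene, at 9.82, 20.1 and 9.25 CPM in stress against 3.97, 8.20 and 5.95 CPM in control (edgeR adjusted p = 0.42), again highest in stress replicate 2. In brain, Ccn2, another target of that branch, averaged 24.6 ± 0.87 CPM in stress and 31.3 ± 2.4 CPM in control (SD, n = 3 each; edgeR adjusted p = 0.47). The difference of the stress effect between brain and testis was tested for 8 genes of the set in an interaction fit over 12 libraries, and 0 were called, where 0% of 22391 genes were. None of the 8 had a p under 0.05 before adjustment. DESeq2 also called 0 of the set, and 85 of all genes. For Fst this difference, brain minus testis, was -1.53 ± 0.92 in log2 units (SE; adjusted p of 0.61 in edgeR), and -0.07 without stress testis replicate 2. Differences of the stress effect that involve liver were not tested, since the liver effect chose the set.

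The order of the tissues differed between the 10 genes in control mice. Fstl3, Inha and Inhbb were highest in testis, Inhbc and Inhbe were low outside liver, and the 3 receptors were highest in brain by TPM. Fst was highest in control liver. These levels are shown in the plot of the 10 genes in 18 libraries.

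**Figure D4:**
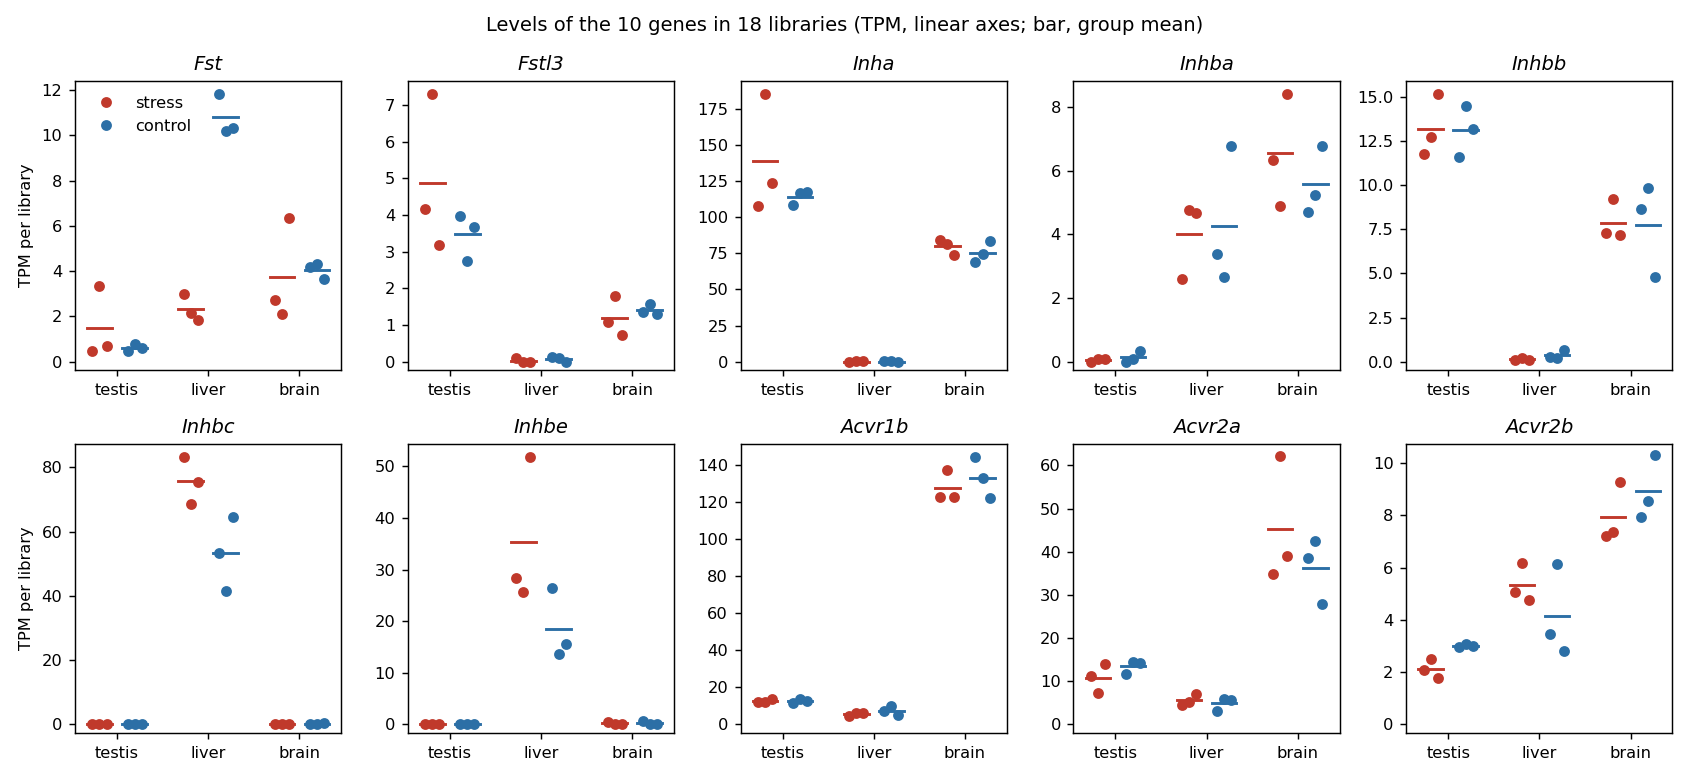
TPM of the 10 genes in testis, liver and brain, 1 point per library with stress libraries left of control libraries and a bar at the mean of 3, on linear axes that differ between genes. In the Fst panel the stress liver points (1.84 to 2.98 TPM) sit below all control liver points (10.2 to 11.8 TPM), and the receptor panels are highest in brain.

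Among the inhibitors, Fst averaged 0.63 ± 0.16 TPM in control testis, 10.8 ± 0.90 TPM in control liver and 4.05 ± 0.35 TPM in control brain (SD, n = 3 each), with no overlap between neighbours. Between testis and brain the log2 fold change of Fst was -1.95 ± 0.24 (SE, edgeR adjusted p = 1.5e-05). In stressed mice Fst averaged 1.51 ± 1.6 TPM in testis, 2.32 ± 0.59 TPM in liver and 3.72 ± 2.3 TPM in brain, and all neighbours in that order overlapped. Fstl3 averaged 3.47 ± 0.64 TPM in control testis, 0.075 ± 0.068 TPM in control liver and 1.41 ± 0.15 TPM in control brain. The share of Fst in the summed TPM of both inhibitors was 11.004% to 22.7% in control testis, 98.9% to 100% in control liver and 73.1% to 75.7% in control brain.

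Inha averaged 114 ± 5.1 TPM in control testis, 0.19 ± 0.057 TPM in control liver and 75.5 ± 7.2 TPM in control brain (SD, n = 3 each). Its log2 fold change between control testis and control brain was 1.33 ± 0.13 (SE, edgeR adjusted p = 2.6e-06). Relative to the summed beta subunits, Inha TPM was 7.98 to 9.34 times as high in control testis and 4.87 to 6.92 times in control brain. In stress testis that ratio was 9.20, 14.5 and 8.16, the highest being stress replicate 2, and in stress brain it was 4.69 to 5.98.

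The makeup of the beta subunits differed between tissues in these libraries. In testis Inhbb made up 99.4% to 100% of the summed beta subunit TPM in stress and 97.6% to 100% in control. In brain Inhba made up 34.5% to 53.6% of that sum in stress and 33.2% to 56.4% in control, and nearly all the rest was Inhbb. Inhbb averaged 13.1 ± 1.4 TPM in control testis, 0.38 ± 0.25 TPM in control liver and 7.75 ± 2.6 TPM in control brain (SD, n = 3 each). Inhbc averaged 53.2 ± 12 TPM in control liver and 0.21 ± 0.22 TPM in control brain, and had 2 counts in 1 of the 3 control testis libraries. Inhbe averaged 18.6 ± 6.9 TPM in control liver and 0.27 ± 0.38 TPM in control brain. It had 0 counts in all 6 testis libraries, which allows up to 0.0166 CPM (3 counts over the 6 libraries), so that its level in control liver, 20.7 CPM on library size alone, was at least 1247-fold higher. Inhba averaged 0.14 ± 0.17 TPM in control testis, 4.28 ± 2.2 TPM in control liver and 5.57 ± 1.1 TPM in control brain, and its liver and brain libraries overlapped.

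For the receptors, Acvr1b averaged 12.7 ± 0.95 TPM in control testis, 7.50 ± 2.4 TPM in control liver and 133 ± 11 TPM in control brain (SD, n = 3 each). Acvr2a averaged 13.5 ± 1.5 TPM in control testis, 4.89 ± 1.5 TPM in control liver and 36.3 ± 7.5 TPM in control brain. Acvr2b averaged 3.02 ± 0.05 TPM in control testis, 4.13 ± 1.8 TPM in control liver and 8.92 ± 1.2 TPM in control brain, and testis and liver overlapped. The type 1 receptor Acvr1b was thus the most abundant of the 3 in every control brain library, while in testis Acvr1b and Acvr2a were close.

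Tested on counts over the 9 control libraries, 8 of the 10 genes were called by edgeR between testis and brain (3 higher, 5 lower in testis), where 83.8% of 21953 genes were (45% higher, 38.7% lower). Between testis and liver 8 were called (3 higher, 5 lower in testis), where 84.9% of all genes were (52% higher, 32.9% lower). Between liver and brain 10 were called (5 higher, 5 lower in liver), where 70.4% of all genes were (30% higher, 40.3% lower). Most genes tested were thus called in each of these comparisons. In stressed mice the counts were 7, 7 and 9 of 10, where 83%, 84.7% and 69.6% of 21846 genes were called. In both sets of mice the comparisons share libraries. Fst was among the genes called in both comparisons with liver in control mice, and was not called in stressed mice. Its liver values chose the set, so its part in these counts is a description and not a test. Inhbc and Inhbe were called in both comparisons with liver, in control and in stressed mice. They passed the low-count filter through liver alone, so their part in these counts is likewise a description.

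Several of these directions depended on how tissues are scaled. Library size alone in place of TMM factors moved the median log2 fold change over all genes by -0.29 for testis minus brain, by 0.72 for testis minus liver and by -1.05 for liver minus brain. Acvr2b was higher in control liver than in control brain by 0.74 ± 0.31 with TMM (SE, edgeR adjusted p = 0.048), but -0.32 with library size alone and -0.996 on log2(TPM + 1), and the call was lost with animal as a block (adjusted p = 0.10) and without the filter on low counts (adjusted p = 0.078). The call was also lost when control brain replicate 1 or 2, control liver replicate 1 or 2 or any control testis library was left out, with adjusted p between 0.054 and 0.30. Inhba was higher in control liver than in control brain by 1.43 ± 0.46 with TMM (SE, edgeR adjusted p = 0.015), by 0.40 with library size alone (adjusted p = 0.48), and by -0.38 on log2(TPM + 1). It also lost that call without control brain replicate 1 (adjusted p = 0.052) or control liver replicate 3 (adjusted p = 0.082). Acvr1b differed between control testis and control liver by -0.37 ± 0.21 with TMM (SE, edgeR adjusted p = 0.12), and by 0.37 with library size alone. It was called lower in testis without control liver replicate 3 (-0.61, adjusted p = 0.0022) but higher by limma on log2(TPM + 1) (0.72, adjusted p = 0.0041). Acvr2a, not called between control testis and control liver (0.37 ± 0.21, SE, edgeR adjusted p = 0.12), was called higher in testis with DESeq2 (adjusted p = 0.031), with its size factors in edgeR (0.037), with library size alone (1.09), with limma (1.33) and without control liver replicate 2 (0.54, adjusted p = 0.042). Between testis and brain, Acvr2b (-0.84 ± 0.31, SE, edgeR adjusted p = 0.027) lost its call without control brain replicate 3 or any 1 of the control testis libraries (adjusted p 0.064 to 0.075), and with DESeq2 size factors (adjusted p = 0.061). Inhbe, not called there (adjusted p = 0.078), was called with animal as a block (adjusted p = 0.032), without control brain replicate 3 (adjusted p = 0.028) and by DESeq2. Inhbc, not called there either (adjusted p = 0.14), was called without control testis replicate 2 (adjusted p = 0.048). Control brain had 15, 2 and 0 counts of Inhbe and 2, 1 and 10 of Inhbc, against 0 to 2 in control testis. Both genes passed the low-count filter in this fit because it includes liver, so no difference between testis and brain is read from their calls. The higher levels of Fstl3, Inha and Inhbb in testis than in brain held their sign under each of these scalings, as did the lower levels of Fst, Inhba, Acvr1b and Acvr2a.

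Counting could mix some genes of the set with their neighbours, since the strand setting is not given in the sources used here. Fstl3 overlaps Prss57 on the other strand, which had 19 to 46 counts in brain, where Fstl3 had 17 to 44. Acvr2a overlaps Orc4 on the other strand, which had 1556 to 1953 counts in brain and 238 to 695 in testis. Values of Fstl3 in brain and of Acvr2a in all tissues are uncertain to that extent. Fst, Inhba, Inhbc, Inhbe and Acvr2b also overlap genes on the other strand, and Acvr1b overlaps a microRNA gene on its own strand. No counts of those neighbours are given here, so the extent for these genes is not known.

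Over all 18 libraries, 15642 protein-coding genes were ranked by how closely their profile followed that of Fst, as the root mean square difference of log2(CPM + 0.5) on library size, each gene being centred on its own mean. The median gene differed by 1.97. The closest were Ppp1r15a (0.57), a phosphatase subunit gene of the integrated stress response, Pmvk (0.58), a kinase of cholesterol synthesis, Klf11 (0.62), a Kruppel-like transcription factor, Dhrs7 (0.63), a dehydrogenase, and Pnrc1 (0.63), a nuclear receptor coactivator. Ppp1r15a averaged 11.3 ± 4.0 TPM in stress liver and 30.9 ± 2.9 TPM in control liver, with 4.81 ± 1.0 TPM in stress testis and 5.59 ± 1.2 TPM in control testis (SD, n = 3 each). Pmvk averaged 47.5 ± 25 TPM in stress liver and 118 ± 13 TPM in control liver. Klf11 averaged 4.001 ± 1.1 TPM in stress liver and 8.53 ± 0.55 TPM in control liver. Dhrs7 averaged 41.5 ± 6.2 TPM in stress liver and 63.4 ± 7.4 TPM in control liver, and Pnrc1 89.2 ± 28 and 121 ± 13 TPM. The edgeR log2 fold changes in liver ran from -1.46 for Ppp1r15a to -0.44 for Pnrc1, against -2.22 for Fst. Since likeness to Fst chose these genes, their lower values in stress liver are a description.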

How the data were processed

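The authors deposited 1 table with raw counts, TPM and FPKM for 34932 genes in 18 libraries made with a stranded total RNA kit, per the labels' protocols. The deposited counts are whole numbers without normalization. The TPM deposited by the authors sum to 1 fixed total per library, and the FPKM deposited by the authors fit the counts with 1 length per gene. Reads were placed on mouse build mm39, per the submitters' processing notes. The aligner, counter, strand setting and annotation were not given in the sources used here. Of small counts (1 to 40), 62.5% were even, so counts may not be single fragments. Symbols came from GENCODE M21 and named 34362 genes, leaving 570 unnamed.

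Stress was tested against control in each tissue by the quasi-likelihood test of edgeR 4.0.16 (R 4.3.3), after TMM scaling and the default low-count filter, with Benjamini-Hochberg adjustment over all genes tested and a threshold of 0.05. Tissues were compared over 9 libraries of control or of stressed mice, and the stress effect in brain minus that in testis over 12. The scripts were tested on simulated data. Floors for genes at 0 use 3 counts and cover counting error only. Replicate libraries differed by more than counting error (chi-square per degree of freedom 4.43 to 104), and none was counted as a duplicate. P-values measure the spread between these libraries.

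Alternatives were no filter on low counts, DESeq2 1.42.0, edgeR with the size factors of DESeq2, library size alone between tissues, limma 3.58.1 with trend on log2(TPM + 1), FPKM for levels, each library left out and replicate number or animal as a block. Same-numbered stress and control libraries deviated together in brain (r across genes 0.35, 0.25 and 0.54), so the number was taken to pair them there, and not in liver (0.24, 0.05 and 0.02) or testis (0.11, 0.10 and -0.13). The brain estimates, SE and p-values printed above are nonetheless from the fit without this pairing. With the replicate block, the log2 fold change of Fst in brain was -0.28 (edgeR adjusted p = 0.82). Sample codes recur across tissues and were taken as animals. One stress brain library carries a description with the control prefix, while its title and treatment say stress, and it was kept as stress.

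The 10 genes, the gene lists and the tests were chosen with earlier results of these data known. Named were the 10 genes, the 5 genes most like Fst, and up to 3 called genes per list or, with none called, up to 2 with the smallest p; Clu, Insl3 and Cyp17a1 were chosen after their values were seen. One gene that this rule names is not reported here.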

Additional observations from a re-analysis of the deposited data

How the results depend on the processing

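Genes called for stress in liver numbered 232, and 845 with DESeq2, 858 without the filter on low counts, 143 with limma on log2(TPM + 1), 475 with the replicate block and 31 to 291 with 1 library left out. In brain 1 gene was called, and 137 with DESeq2, 2 without the filter, 22 with the replicate block and 0 to 1 with 1 library left out. In testis 4 were called, and 61 with DESeq2, 25 without the filter, 2 with limma and 0 to 21 with 1 library left out. The stress effect in brain minus testis gave 0 genes, and 85 with DESeq2, 8 without the filter, 4 with limma and 0 to 3 with 1 library left out.

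In liver, where the 10 genes carry no test, Inhba ran from -0.33 to 0.36 and Acvr2a from -0.034 to 0.35 with 1 library left out. In the other comparisons signs changed in 16 values, none of them called except where stated. With 1 library left out in brain, the log2 fold change ran from -0.78 to 0.17 for Fst (0.06 without stress replicate 1, 0.17 without stress replicate 2), from -0.0059 (without control replicate 1) to 0.15 for Inha, from -0.022 (without stress replicate 3) to 0.40 for Inhba, and from -0.23 to 0.21 for Inhbb (-0.23 without control replicate 3, -0.10 without stress replicate 2). In testis, Fst ran from -0.063 (without stress replicate 2) to 1.82, and Acvr1b was -0.0021 with limma. For testis minus liver, Acvr1b was 0.72 with limma (adjusted p = 0.0041) and 0.37 with library size alone. For liver minus brain, Inhba was -0.38 with limma, and Acvr2b was -0.996 with limma (adjusted p = 0.0015) and -0.32 with library size alone. For brain minus testis, Inhba ran from -0.011 (without control testis replicate 3) to 2.10, and Inhbb from -0.33 to 0.10 (without control brain replicate 2), and was 0.056 with limma. The cause of these changes was not tested.

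The replicate block, which pairs same-numbered brain libraries, moved the count in brain from 1 gene to 22 and called 0 of the 10 genes; in liver and testis, where the numbers were not taken as pairs, it moved the counts to 475 and 6. With animal as a block, Acvr2b lost its call for liver minus brain (0.69, adjusted p = 0.10). Inhbe gained one for testis minus brain (-4.97, adjusted p = 0.032) on 0 to 15 counts, and no other call of the 10 genes changed.

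Higher against lower calls between tissues shifted with scaling: 6593 against 8852 for liver minus brain, but 3899 against 12526 with library size alone and 2561 against 14246 with limma; 11420 against 7219 for testis minus liver, but 13213 against 5531 and 13640 against 4644; and 9885 against 8503 for testis minus brain, but 8247 against 10860 with limma. By FPKM, 9 of the 10 genes kept the order of tissues that TPM gave in control mice, Inhba being the exception. With 3 libraries a group, genes with low counts (Fst in testis, Inhbb in liver, Fstl3 in brain) have wide errors.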
